A study of Zea mays with 9 samples.

Results

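The beta-1,3-glucanases described here are the 67 maize (Zea mays) genes, of 39755 in the count table, whose description carries the Pfam domain PF00332, glycosyl hydrolases family 17. Messenger RNA was counted in leaves of the cultivar Golden Bantam. Leaf 2 of seedlings 8 days old was cut and infiltrated at 60 mbar, and all leaves were taken 6 h later. The Zip1 group received the Zip1 peptide at 5 µM, the SA group salicylic acid at 2 mM, and the mock group water with 0.1% of the solvent DMSO. Each group had 3 libraries, 9 in all. Whether the Zip1 and SA solutions also held DMSO, and whether the libraries of a group came from separate plants, is not stated, so p-values measure the spread between these libraries, which may in part be technical.

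Family 17 hydrolases cut beta-1,3-linked glucans, the chains that form callose in plant walls and a main part of many fungal walls. Secreted members are classical pathogenesis-related proteins (group PR-2) that attack fungal walls, and others are held at the cell surface, where they remove callose at plasmodesmata, the channels between plant cells, or at dividing and developing walls. Lichenases of the same family cut the mixed-linkage beta-1,3;1,4-glucan that is typical of grass walls. Salicylic acid is a hormone of the pathogen response, and Zip1 is a maize signalling peptide released from a larger precursor protein.

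Most members are described as beta-1,3-glucanases, with exceptions. The count table pairs 66 of the 67 genes with 23 different protein entries, each a described protein that resembles the gene's product, in most cases from another plant. Lichenase-2 of barley describes 6 members, and 1 member each is described as a pantothenate kinase and as a polyamine transporter, although the domain is listed for both. An X8 domain, a carbohydrate-binding module that binds beta-1,3-glucan, stood beside the hydrolase domain in 34 members and was absent from the description of 33. The genes lie on 9 chromosomes, and 20 of them form 10 pairs in which a member overlaps another on the opposite strand. Whether counting used the strand is not stated, so reads of such a pair cannot be told apart.

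Of the 67 members, 45 passed the filter on low counts and were tested, 13 had some counts but did not pass, and 9 had no count in any library. The highest count of an untested member in any library was 17. The libraries held 28840453 to 38794412 counts, and between 45 and 53 members had at least 1 count in each. Light-harvesting proteins took 3.74% to 8.36% of the counts of a library and phosphoenolpyruvate carboxylase 1.84% to 2.77%, while the 22 zeins, the storage proteins of the maize endosperm, had 1 count in all 9 libraries together, so leaf markers were abundant in every library. The members at 0 included Zm00001eb036160, described as A6, a glucanase of the anther in Arabidopsis, and Zm00001eb319040, described by a glucosidase of olive. The other member described as A6, Zm00001eb317500, was tested, had 79 counts over 8 of the 9 libraries, and was not called. Glucan endo-1,3-beta-glucosidase 11 described 3 members, 2 of them at 0 and none tested.

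Levels are given as CPM (counts scaled to a common library total) per kilobase of gene model, with that total adjusted by the trimmed mean of M values (TMM). Averaged over the 9 libraries, 8 tested members had a level of 10 or more, 18 lay between 1 and 10, and 19 lay under 1. The median level was 1.77 for the tested members and 5.33 for all tested genes. A single gene stood above the rest. Zm00001eb286760, a lichenase-2 (chromosome 6, 153451995 to 153456515, minus strand, build not given in the sources used here), had a mean level of 631, which is 8.57 times that of the next member and in the 99.5th percentile of all tested genes. Its group mean levels were 785 ± 219 in Zip1 leaves, 526 ± 174 in SA leaves and 583 ± 77.4 in mock leaves (SD, n = 3).

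The next genes in this order had varied descriptions. Zm00001eb141540, the acidic isoform of maize glucan endo-1,3-beta-glucosidase, had a mean level of 73.6, and Zm00001eb218220, described by Arabidopsis glucan endo-1,3-beta-glucosidase 8, had 57.4. Zm00001eb348300, described by glucosidase 14, followed at a level of 33.4, Zm00001eb091470, described by a wheat glucosidase, at 31.1, and Zm00001eb319630, the pantothenate kinase model, at 22.1. The last of these overlaps a member and a further gene on the other strand. Its group mean levels were 22.3 ± 1.35 in Zip1 leaves, 21.3 ± 1.93 in SA leaves and 22.8 ± 0.465 in mock leaves (SD, n = 3).

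**Figure D1:**
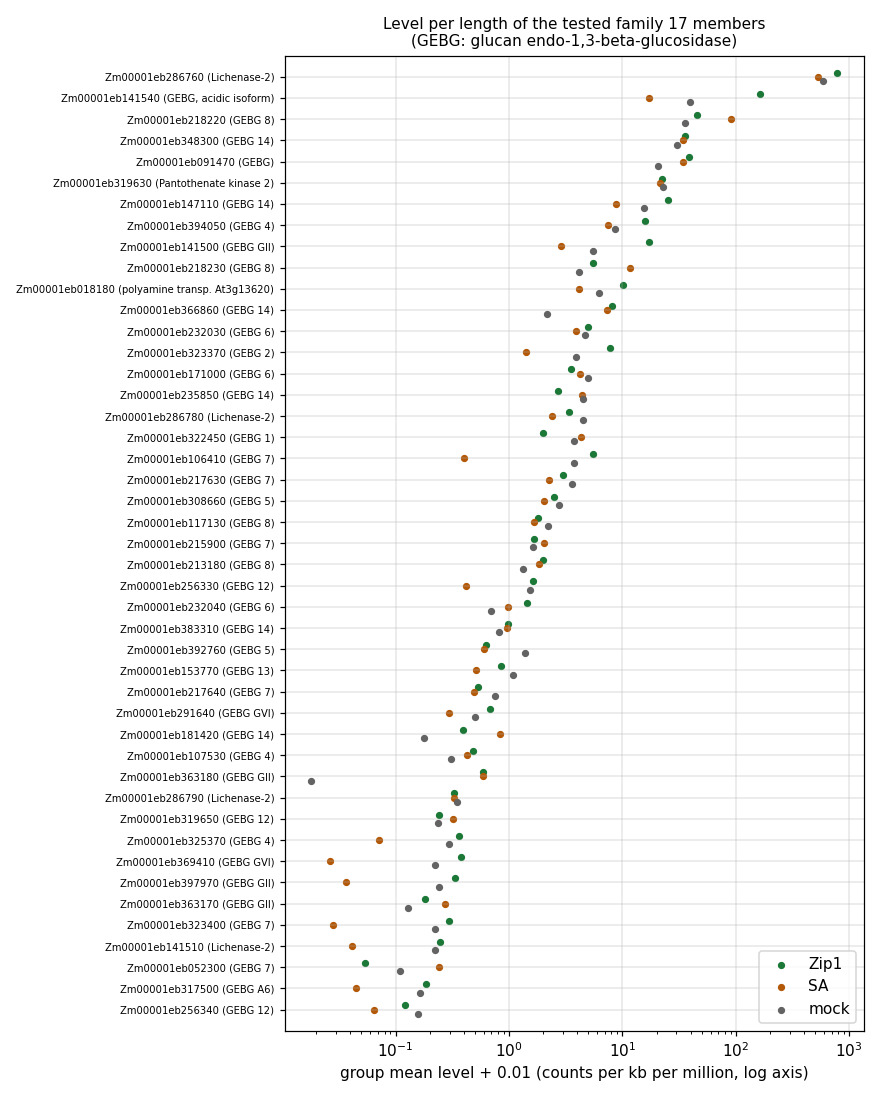
Group mean level of each of the 45 tested members in CPM per kilobase, with 0.01 added for the log axis and 1 point each for Zip1, SA and mock leaves. The lichenase Zm00001eb286760 is far to the right, and several SA points lie left of the other groups, such as Zm00001eb106410 at 0.389.

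Counts below are normalised counts, that is, raw counts divided by the effective library size and multiplied by its mean over the libraries. Summed over all 67 members, they were 77245, 54095 and 81814 in Zip1 leaves, 53659, 35269 and 60201 in SA leaves, and 52729, 51539 and 45753 in mock leaves. The Zip1 sums were all above the mock sums, and the SA sums lay on both sides of them. The group means were 71052 ± 14861 for Zip1, 49709.6 ± 12927 for SA and 50007 ± 3732 for mock (SD, n = 3). In leaf RNA a change in the number of cells that express a gene and a change in RNA per cell cannot be told apart.

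The lichenase Zm00001eb286760 made up most of these sums, at 56.6% to 66.1% in Zip1 leaves, 52.7% to 66.9% in SA leaves and 63.0% to 71.4% in mock leaves. Its counts were 49735, 30611 and 54069 in Zip1 leaves, 35889, 18599 and 35636 in SA leaves, and 37658, 33359 and 28824 in mock leaves. The groups overlapped, and no comparison passed: the log2 fold change was 0.43 for Zip1 against mock (SE 0.29, adjusted p 0.653 in edgeR's quasi-likelihood test), −0.15 for SA against mock (SE 0.29, adjusted p 0.849) and 0.58 for Zip1 against SA (SE 0.29, adjusted p 0.346). Without the lichenase the sums were 27510.0, 23484 and 27746 in Zip1 leaves, 17770.0, 16669.8 and 24565 in SA leaves, and 15071, 18180.4 and 16929 in mock leaves. Of the difference of 21045 between the Zip1 and mock means of the whole sum, the lichenase held 11525 and the acidic isoform Zm00001eb141540 held 5069. The difference of SA minus mock in the whole sum was −297, in which a difference of 3781 in Zm00001eb218220 stood against −3239 in the lichenase.

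**Figure D2:**
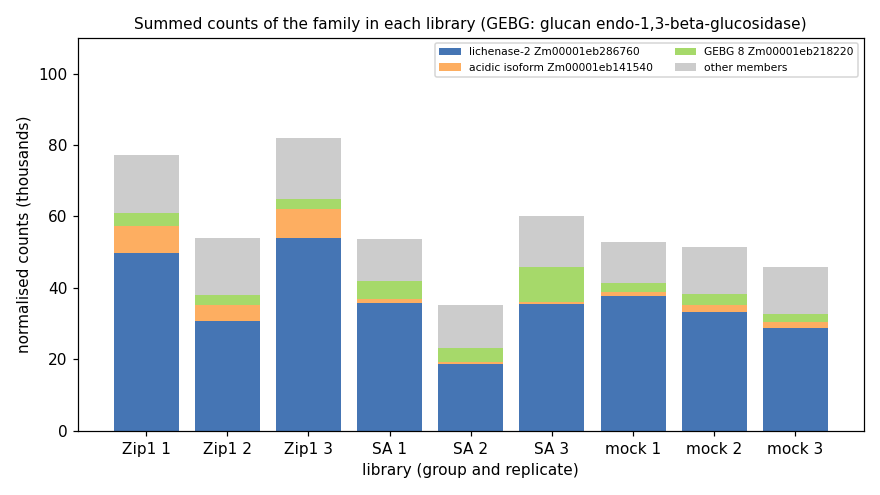
Summed normalised counts of the 67 members in each library, stacked by gene, with libraries named by group and replicate. The lichenase is the largest block in all 9 libraries, the acidic isoform is widest in the Zip1 bars and Zm00001eb218220 in the SA bars.

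The main tests compared the groups gene by gene over all 23077 tested genes, with a call at an adjusted p under 0.05. Unless another fit is named, a call refers to these tests, the reported fit. With SA against mock, 4 of the 45 tested members rose and 1 fell, or 8.89% and 2.22%, where 5.11% of all tested genes rose and 1.11% fell (6.22% in both directions). Among the 4, Zm00001eb218220 and Zm00001eb218230 overlap on opposite strands and may hold reads of the same transcripts. The share of 8.89% may therefore count 1 locus more than once. A fit that blocks on the replicate number, since it pairs these groups, called 2220 genes in all, in place of 1436. It again gave 4 higher members and 1 lower, but the lower member was Zm00001eb141500 (adjusted p 0.0365) and not Zm00001eb141540 (0.0544). With Zip1 against mock, 2 members rose, or 4.44%, against a background of 0.823% (0.884% in both directions), and none was called lower, where the background was 0.0607%. At an unadjusted p under 0.05, 1 member was lower with Zip1, and the DESeq2 Wald test also called none. Of all 23077 tested genes, 913 and 222 were lower by these criteria. Set directly against each other, Zip1 was higher than SA in 5 members, or 11.1%, against 1.56% of all genes, and lower in none, against 2.56% (4.11% in both directions). At an unadjusted p under 0.05, 4 members were lower with Zip1 than with SA, and DESeq2 called 4. Of all 23077 tested genes, 2108 and 1202 were lower by these criteria. Both counts of 4 hold the overlapping models Zm00001eb218220 and Zm00001eb218230, so they may count 1 locus more than once. With the replicate block, 4 members and 471 genes in all were higher with Zip1 than in mock leaves. For Zip1 against SA the block gave 6 higher members and 1 lower, beside 679 and 874 genes in all. Without the block, 9 different members were called over the comparisons, the overlapping pair among them. The Zip1 and SA comparisons share the mock libraries, so a low or high mock library moves both.

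The median log2 fold change of the 45 members was −0.27 with SA, 0.28 with Zip1 and 0.27 for Zip1 against SA, beside −0.04, −0.01 and 0.01 over all tested genes. The log2 fold change was above 0 in 16 of the 45 members with SA, in 30 with Zip1 and in 35 for Zip1 against SA. The libraries did not overlap in 12 members that were higher with Zip1 than with SA and in 4 that were lower, where the shares of all genes were 11.5% and 12.0%. With Zip1 against mock these counts were 8 and 3, beside 10.3% and 7.35% of all genes. With SA against mock they were 7 and 8, beside 13.5% and 10.5%. The overlapping models Zm00001eb218220 and Zm00001eb218230 are both among the 7 higher with SA and the 4 lower for Zip1 against SA. Members that passed the filter through 1 group only had to differ, so these counts describe the tested members and not the family.

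**Figure D3:**
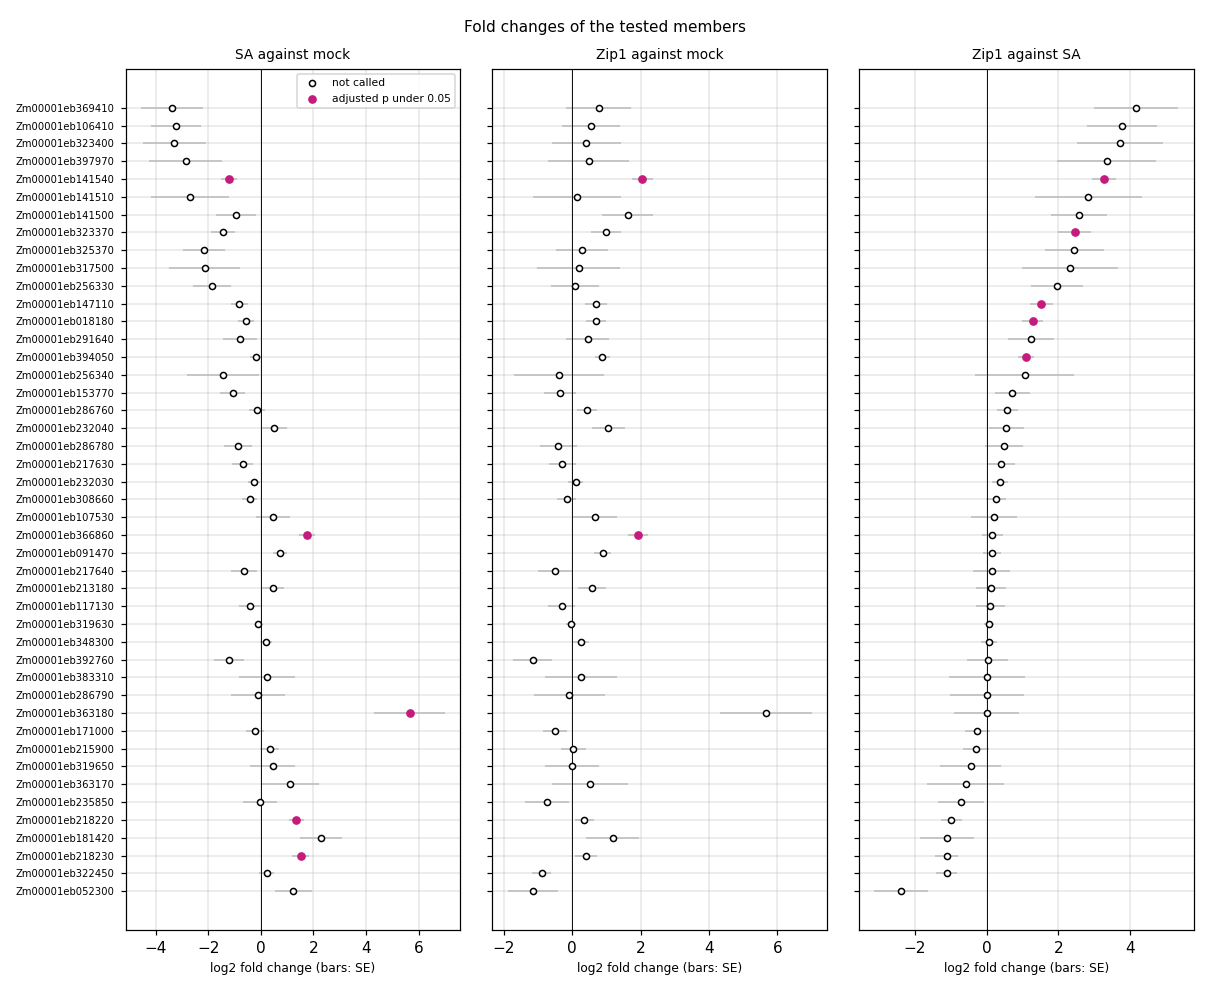
Log2 fold change with its SE for the 45 tested members in the 3 comparisons, in the order of Zip1 against SA, with called members filled. Zm00001eb141540 is filled on the left of 0 for SA and on the right for Zip1, and Zm00001eb366860 is filled on the right for both.

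A glucanase of the pathogenesis-related type was higher with Zip1 and lower with SA than in mock leaves. Zm00001eb141540, the acidic isoform (chromosome 3, 154099387 to 154100765, plus strand), is described by an entry from maize, which the count table also gives to an overlapping pair of untested members. Its normalised counts were 7613, 4522 and 7896 in Zip1 leaves, 948, 561 and 566 in SA leaves, and 1077, 1995 and 1754 in mock leaves. None of the groups overlapped: every Zip1 library was above every mock library, and every SA library below. It was 9.65-fold higher with Zip1 than with SA (log2 fold change 3.27, SE 0.32, adjusted p 0.00052), and this call held whichever of the 9 libraries was left out. Against mock it rose 4.15-fold with Zip1 (log2 2.05, SE 0.31, adjusted p 0.0195) and lost this call without mock replicate 1 (adjusted p 0.0901).

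The fall of Zm00001eb141540 with SA depended on single libraries. It was 2.33-fold lower than mock (log2 fold change −1.22, SE 0.30, adjusted p 0.0381). The replicate number pairs the SA and mock libraries by the correlation of their deviations, and with it as a block the adjusted p was 0.0544. Over 14 alternative fits the value ran from 0.00256 to 0.154. The call was lost without SA replicate 2 (0.119), SA replicate 3 (0.154), Zip1 replicate 1 (0.0509), mock replicate 2 (0.134) and mock replicate 3 (0.0905).

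Zm00001eb141540 is the last of 5 members within 261 kb of chromosome 3. Its neighbour Zm00001eb141500 (153938047 to 153940560, plus strand) is described by GII, a barley isoenzyme known from the response to fungal infection. It had 376, 642 and 1728 normalised counts in Zip1 leaves, 43.3, 127 and 291 in SA leaves, and 115, 394 and 384 in mock leaves. Zip1 and SA libraries did not overlap, but the replicates of each group spread widely. Without the block no comparison passed (log2 fold change 2.58 for Zip1 against SA, SE 0.78, adjusted p 0.113; 1.62 for Zip1 against mock, SE 0.75, adjusted p 0.457; −0.95 for SA against mock, SE 0.75, adjusted p 0.565). With the replicate number as a block it was lower with SA than in mock leaves (log2 fold change −1.15, adjusted p 0.0365). In that fit it was also called higher with Zip1, both against mock and against SA (log2 fold change 2.66 against SA, adjusted p 0.00133). The other 3 genes of this run, the overlapping lichenase-2 models Zm00001eb141510 and Zm00001eb141520 and a member described by barley GIV, had at most 22 counts in any library. The GIV gene Zm00001eb141490 had 6 counts in 1 Zip1 library and none elsewhere.

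A second gene described by GII, Zm00001eb363180 (chromosome 8, 165302251 to 165303672, plus strand), was almost absent from mock leaves. Raw counts of Zm00001eb363180 were 8, 25 and 40 in Zip1 leaves, 47, 15 and 7 in SA leaves, and 0, 0 and 1 in mock leaves. Its mean normalised count was 7.81 times a floor of 3 counts per library with Zip1 and 7.85 times with SA. These ratios leave out the spread between libraries. The SA comparison passed (adjusted p 0.0301) and the Zip1 comparison did not (adjusted p 0.0848), although the means were 23.4 ± 14.6 in Zip1 leaves and 23.5 ± 23.8 in SA leaves (SD, n = 3), with an adjusted p of 0.999 between them. The SA call was lost without SA replicate 1 (adjusted p 0.110), mock replicate 1 (0.112), mock replicate 2 (0.117) or mock replicate 3 (0.0608). The gene overlaps the member Zm00001eb363170 on the other strand, whose counts of 12 or fewer outside SA replicate 1 gave no call.

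The remaining GII gene, Zm00001eb397970 on chromosome 9, had 7.79, 19.6 and 12.4 normalised counts in Zip1 leaves, 0, 3.25 and 0 in SA leaves, and 1.04, 20.6 and 6.89 in mock leaves. It was not called. The 4 genes that share the GII entry differed in level, with Zm00001eb141500 at a mean level of 8.47 and the others under 0.4.

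Glucan endo-1,3-beta-glucosidase 14 of Arabidopsis described 6 members, all tested, whose responses were unlike each other. Zm00001eb366860 (chromosome 8, 173307245 to 173310400, minus strand) had 745, 796 and 438 normalised counts in Zip1 leaves, 505, 507 and 757 in SA leaves, and 122, 174 and 224 in mock leaves. Libraries of both treatments lay above all mock libraries and among each other. It rose 3.81-fold with Zip1 (log2 fold change 1.93, SE 0.30, adjusted p 0.0203) and 3.4-fold with SA (log2 1.77, SE 0.30, adjusted p 0.00506), and the direct difference was 0.16 on the log2 scale (SE 0.29, adjusted p 0.844). The SA call held whichever of the 9 libraries was left out. The Zip1 call was lost without Zip1 replicate 2 (adjusted p 0.0647), mock replicate 1 (0.113) or mock replicate 2 (0.0652).

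Zm00001eb147110, with the same entry (chromosome 3, 181366167 to 181368841, minus strand), showed another pattern. It had 1033, 1488 and 1279.8 normalised counts in Zip1 leaves, 415, 407 and 507 in SA leaves, and 422, 1216 and 715 in mock leaves. The mock libraries spanned the gap between the treatments, so that only Zip1 and SA stood apart, with a 2.86-fold higher level in Zip1 (log2 fold change 1.52, SE 0.32, adjusted p 0.0262). This call was lost without SA replicate 1 (adjusted p 0.0812), SA replicate 2 (0.0801), SA replicate 3 (0.0674), Zip1 replicate 2 (0.0800) or Zip1 replicate 3 (0.0715).

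The other 4 members with this entry were not called. Zm00001eb348300, the most abundant, had 1734 ± 298 normalised counts in Zip1 leaves, 1662 ± 434 in SA leaves and 1458 ± 351 in mock leaves (SD, n = 3). Zm00001eb181420 had 4.45, 26.1 and 40.0 in Zip1 leaves, 80.2, 40.6 and 32.3 in SA leaves, and 14.6, 7.60 and 8.86 in mock leaves. Its SA libraries were all above mock, but the difference did not pass (log2 fold change 2.29, SE 0.79, adjusted p 0.131). Zm00001eb235850 ran from 58.0 to 282 normalised counts in Zip1 leaves, 120.3 to 477 in SA leaves and 139 to 415 in mock leaves, and Zm00001eb383310 from 29.9 to 112, from 3.25 to 147 and from 27.6 to 87.7 in the same groups. In both genes the spread within a group was larger than any difference between groups.

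**Figure D4:**
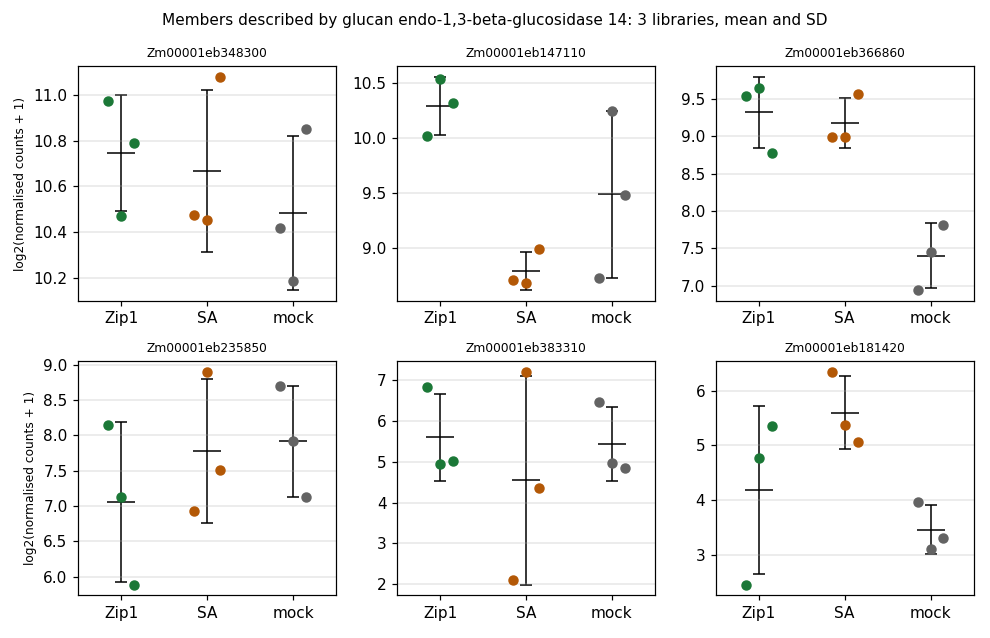
Normalised counts plus 1, on a log2 axis of its own in each panel, of the 6 members described by glucan endo-1,3-beta-glucosidase 14, with 1 point per library, the mean and the SD. Zm00001eb366860 has all Zip1 and SA points above mock, whereas Zm00001eb147110 has high Zip1 and low SA points with mock in between.

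Among members with the X8 domain, a pair of genes matches Arabidopsis glucanases that have been described at plasmodesmata, where they degrade callose. Zm00001eb323370, which entry 2 of Arabidopsis describes (chromosome 7, 164025747 to 164028563, plus strand), had 695, 424 and 580.4 normalised counts in Zip1 leaves, 86.7, 185 and 35.5 in SA leaves, and 259.8, 271 and 321 in mock leaves. None of the groups overlapped, with Zip1 above mock and SA below. The 5.48-fold difference of Zip1 from SA passed (log2 fold change 2.45, SE 0.47, adjusted p 0.0164), while the differences from mock did not (log2 0.99 with Zip1, SE 0.44, adjusted p 0.425; log2 −1.46 with SA, SE 0.46, adjusted p 0.0965). The call was lost without SA replicate 1 (adjusted p 0.0570) or Zip1 replicate 1 (0.0565). Its neighbour Zm00001eb323330, an X8 member described by glucosidase 12, was not tested and had raw counts of 2, 13 and 0 in Zip1 leaves, 9, 0 and 0 in SA leaves, and 0, 0 and 1 in mock leaves.

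Zm00001eb394050, described by glucosidase 4 (chromosome 9, 132448724 to 132453616, minus strand), had 786, 980.2 and 971 normalised counts in Zip1 leaves, 308, 434 and 548 in SA leaves, and 422, 559 and 502 in mock leaves. The Zip1 libraries were above all others, and SA and mock overlapped. It was 2.12-fold higher with Zip1 than with SA (log2 fold change 1.09, SE 0.22, adjusted p 0.0216), and 1.85-fold higher than mock without passing (log2 0.88, SE 0.22, adjusted p 0.0997). The call against SA was lost without SA replicate 1 (adjusted p 0.0572), SA replicate 2 (0.0615), Zip1 replicate 2 (0.0692) or Zip1 replicate 3 (0.0781).

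The other members with entry 4 were low. Zm00001eb325370 had 26.7, 18.7 and 35.2 normalised counts in Zip1 leaves, 1.08, 9.74 and 3.23 in SA leaves, and 16.7, 22.8 and 26.6 in mock leaves, with SA below both other groups in every library but no call (log2 fold change 2.45 for Zip1 against SA, SE 0.82, adjusted p 0.136). Zm00001eb107530 had 36.7 ± 6.09 in Zip1 leaves, 31.9 ± 16.9 in SA leaves and 23.1 ± 12.8 in mock leaves (SD, n = 3). The 2 members described by glucosidase 3, whose Arabidopsis counterpart has also been placed at plasmodesmata, had 44 counts over the 9 libraries together and were not tested.

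Zm00001eb018180 (chromosome 1, 64869048 to 64878976, plus strand) carries the hydrolase and X8 domains under the description of a polyamine transporter, and overlaps another gene on the opposite strand. It had 606, 886 and 1029.5 normalised counts in Zip1 leaves, 300.2, 241 and 497 in SA leaves, and 401, 506 and 639 in mock leaves. Zip1 was 2.43-fold higher than SA (log2 fold change 1.28, SE 0.30, adjusted p 0.0381), with mock between and overlapping both. The call was lost without SA replicate 1 (adjusted p 0.120), SA replicate 2 (0.111), Zip1 replicate 2 (0.0980), Zip1 replicate 3 (0.133) or mock replicate 2 (0.0505).

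A call with SA but not with Zip1 was made at a locus on chromosome 5. Zm00001eb218220 (chromosome 5, 16133545 to 16137090, minus strand), described by glucosidase 8 and carrying an X8 domain, had 3625, 2849 and 3020.0 normalised counts in Zip1 leaves, 5114, 4080.2 and 9558 in SA leaves, and 2524, 2818 and 2067 in mock leaves. All SA libraries were above the others. It rose 2.53-fold over mock with SA (log2 fold change 1.34, SE 0.28, adjusted p 0.0177). Zip1 did not pass against mock (log2 0.36, SE 0.28, adjusted p 0.718) or against SA (log2 −0.98, SE 0.28, adjusted p 0.0857). A difference between the treatments was therefore not shown in the reported fit. DESeq2 called Zip1 lower than SA (adjusted p 0.0146), and the replicate block did not (0.0963). The SA call against mock was lost without mock replicate 1 (adjusted p 0.0643) or mock replicate 3 (0.0600).

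Zm00001eb218230 (16133765 to 16135121, plus strand) lies wholly inside Zm00001eb218220 on the opposite strand and has the same entry. It had 285, 173 and 242 normalised counts in Zip1 leaves, 489, 334 and 686 in SA leaves, and 185, 222 and 118 in mock leaves, and rose 2.87-fold with SA (log2 fold change 1.52, SE 0.33, adjusted p 0.0183). Its share of the raw counts of the pair was 5.72% to 7.41% in Zip1 leaves, 6.69% to 8.72% in SA leaves and 5.41% to 7.32% in mock leaves, and since the strand setting is not stated, both models may hold reads of the same transcripts. The SA call of the inner gene was lost without SA replicate 3 (adjusted p 0.0818), mock replicate 1 (0.0613) or mock replicate 3 (0.0548). For this gene DESeq2 also called Zip1 lower than SA (adjusted p 0.0219), and the reported fit did not (0.0884). Glucosidase 8 described 7 members in all, of which Zm00001eb117130 and Zm00001eb213180 were also tested and not called, 1 had 2 counts and 2 had none.

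**Figure D5:**
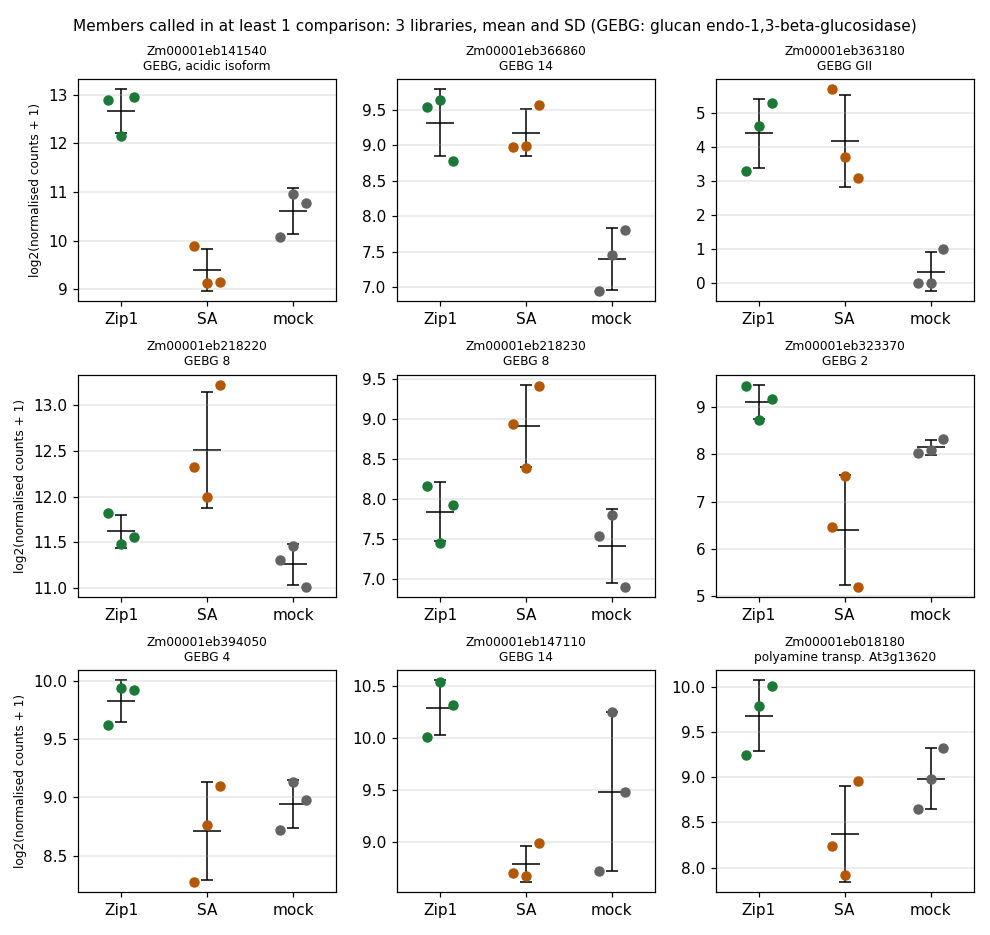
Normalised counts plus 1, on a log2 axis of its own in each panel, of the 9 members called in at least 1 comparison, with 1 point per library, the mean and the SD. Zm00001eb366860 and Zm00001eb363180 have Zip1 and SA above mock, both models of the chromosome 5 locus have SA highest, and the other 5 have Zip1 highest and SA lowest.

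Several members had few counts in SA leaves, without a call in the reported fit. Zm00001eb106410, described by glucosidase 7 (chromosome 2, 210745847 to 210748643, plus strand), had 397, 361 and 407 normalised counts in Zip1 leaves, 27.1, 56.0 and 0 in SA leaves, and 85.6, 189 and 524 in mock leaves. Its SA libraries lay below all others, but the log2 fold changes of −3.22 against mock (SE 0.96, adjusted p 0.0901) and 3.77 for Zip1 against SA (SE 0.97, adjusted p 0.0683) did not pass. Zm00001eb323400, with the same entry, had 23.4, 11.2 and 28.5 in Zip1 leaves, 0, 4.06 and 0 in SA leaves, and 8.35, 28.2 and 10.8 in mock leaves. Zm00001eb369410, described by barley GVI, had 8.91, 25.2 and 20.9 in Zip1 leaves, 0, 2.43 and 0 in SA leaves, and 14.6, 9.77 and 7.88 in mock leaves. Its Zip1 mean was 6.12 times the floor of 3 counts and its mock mean 3.58 times, leaving out the spread between libraries. The adjusted p was 0.0814 for Zip1 against SA and 0.132 for SA against mock. SA replicate 2 was the only SA library with counts of these last 2 genes. In DESeq2 Zip1 was called higher than SA in Zm00001eb106410 (adjusted p 0.0323), Zm00001eb323400 (0.0225) and Zm00001eb369410 (0.0119). For SA against mock DESeq2 called Zm00001eb323400 (adjusted p 0.0449), but not Zm00001eb106410 (0.0753) or Zm00001eb369410 (0.0507). The replicate block called none of them in these comparisons.

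A few other members had their lowest libraries in Zip1 or mock leaves, again without a call in the reported fit. Zm00001eb322450, described by glucosidase 1 (chromosome 7, 161392543 to 161402737, plus strand), had 326, 209 and 146 normalised counts in Zip1 leaves, 531, 528 and 410.1 in SA leaves, and 519, 335 and 413 in mock leaves. Its Zip1 libraries were below all others, with log2 fold changes of −1.11 against SA (SE 0.29, adjusted p 0.0621) and −0.90 against mock (SE 0.29, adjusted p 0.215). It was called lower with Zip1 than with SA in DESeq2 (adjusted p 0.00785), with the replicate block (0.0168) and without the filter (0.0465). Zm00001eb052300, described by glucosidase 7, had 11.1, 7.47 and 1.90 in Zip1 leaves, 28.2, 35.7 and 44.1 in SA leaves, and 19.8, 14.1 and 11.8 in mock leaves, and its log2 difference of −2.39 between Zip1 and SA did not pass either (SE 0.74, adjusted p 0.112). DESeq2 called this difference (adjusted p 0.0139), and the replicate block did not (0.108). Zm00001eb091470, the wheat-type X8 member, had 2788, 2615 and 2578 in Zip1 leaves, 1967, 1606 and 3603 in SA leaves, and 1286, 1472 and 1558 in mock leaves. Both treatments lay above every mock library, at log2 fold changes of 0.89 with Zip1 (SE 0.26, adjusted p 0.157) and 0.73 with SA (SE 0.26, adjusted p 0.135).

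Zm00001eb232040, an X8 member described by glucosidase 6, had 46.9 ± 9.18 normalised counts in Zip1 leaves, 32.1 ± 8.35 in SA leaves and 22.4 ± 4.97 in mock leaves (SD, n = 3), with Zip1 against mock not passing (log2 fold change 1.06, SE 0.49, adjusted p 0.446). It lies inside Zm00001eb232030 on the opposite strand and took 8.93% to 9.61% of the pair's raw counts in Zip1 leaves, 7.33% to 9.92% in SA leaves and 3.87% to 5.93% in mock leaves. Its share was higher in every Zip1 and SA library than in any mock library. Zm00001eb392760, described by glucosidase 5, had 51.2, 42.9 and 20.9 in Zip1 leaves, 23.8, 68.2 and 19.4 in SA leaves, and 120.0, 71.6 and 66.0 in mock leaves, and was not called (log2 fold change −1.16 with Zip1, SE 0.57, adjusted p 0.487).

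By domain, 24 members with X8 and 21 without it were tested. With SA, 2 members with X8 rose and none was called lower (6 lower at an unadjusted p under 0.05, 2 lower in DESeq2), and of those without X8, 2 rose and 1 fell. The 2 with X8 are the overlapping models of the chromosome 5 locus, which may hold reads of the same transcripts. With Zip1 against mock, 2 members without X8 rose and none with it was called (5 at an unadjusted p under 0.05, 2 in DESeq2). Zip1 was higher than SA in 3 members with X8 and 2 without. Of all tested genes, 5.11% rose and 1.11% fell with SA, 0.823% rose with Zip1, and 1.56% were higher with Zip1 than with SA. Median log2 fold changes with X8 and without X8 were −0.42 and −0.10 for SA, 0.24 and 0.43 for Zip1, and 0.38 and 0.06 for Zip1 against SA. A difference between these subgroups was not tested.

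The counts of called members, and of all genes called, changed when single libraries were left out. The SA count of 4 higher members was 1 without mock replicate 1 and 1 without mock replicate 3, and the count of 1 lower member was 2 without mock replicate 1 and 0 without mock replicate 2, mock replicate 3, SA replicate 3 or Zip1 replicate 1. Over all genes the 1436 SA calls became 887, 886 and 1230 without mock replicates 1, 2 and 3. They became 839 without SA replicate 3 and 1369 without Zip1 replicate 1. The Zip1 count of 2 was 0 without mock replicate 1 and 1 without mock replicate 2 or Zip1 replicate 2. Over all genes the 204 Zip1 calls became 0, 41 and 56 without these libraries, in the order named. The count of 5 for Zip1 over SA was 1 without SA replicate 1 and 2 without SA replicate 2, Zip1 replicate 2 or Zip1 replicate 3. In the same order, the 949 calls over all genes in this comparison became 590, 727, 609 and 456. Over members with a mean of 100 normalised counts or more (24 genes), the coefficient of variation within a group had a median of 24.2% in Zip1 leaves, 32.5% in SA leaves and 25.7% in mock leaves.

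Callose synthases make the polymer that the glucanases cut (domain PF02364, 14 tested of 23). With SA 1 was called higher, or 7.14% beside 5.11% of all tested genes (3 with the replicate block, 2 in DESeq2). At an unadjusted p under 0.05, 5 were higher and 2 lower. Of all 23077 tested genes, 1541 were higher with the block and 1762 in DESeq2. At an unadjusted p under 0.05, 2601 of all genes were higher and 1770 lower. None was called with Zip1 against mock (0 at an unadjusted p under 0.05, 0 in DESeq2), with median log2 fold changes of 0.08 and −0.16. The gene called was Zm00001eb259620, callose synthase 1, at 1149.7 normalised counts in Zip1 leaves, 2082 in SA leaves and 1234 in mock leaves, a rise of 0.75 with SA on the log2 scale (SE 0.15, adjusted p 0.0108), and it was lower with Zip1 than with SA (log2 fold change −0.86, SE 0.15, adjusted p 0.00908). X8 proteins without the hydrolase domain (16 tested of 25) had 1 call higher with SA, or 6.25% beside 5.11% of all tested genes. They had none with Zip1 against mock (0 at an unadjusted p under 0.05, 0 in DESeq2).

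Chitinases cut the chitin of fungal walls. Of 10 tested family 19 chitinases, 2 rose and 1 fell with SA, and 2 rose with Zip1. Of 14 tested genes with the family 18 domain, 2 rose with SA and 3 with Zip1. In both comparisons with mock 1 of these was Zm00001eb174340, described as an acidic endochitinase, and the others were described as xylanase inhibitors. Thaumatin-like proteins (PR-5 type, 21 tested) had 1 rise with each treatment, and the 4 tested CAP-domain (PR-1 type) genes had no call in any comparison (0 at an unadjusted p under 0.05, 0 in DESeq2). Zip1 was higher than SA in 2 family 19 chitinases (20%), 3 family 18 genes (21.4%) and 2 thaumatin-like genes (9.52%), and lower in none of these. The 3 family 18 genes were all described as xylanase inhibitors. All of these counts stand beside the background shares given above. These were 5.11% higher and 1.11% lower with SA, 0.823% higher with Zip1, and 1.56% higher with Zip1 than with SA.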

How the data were processed

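The authors deposited raw counts per gene, 1 column per library, with gene coordinates, lengths and descriptions. HISAT2 2.0.5, featureCounts 1.5.0-p3 and DESeq2 1.20.0 are named in the submitters' processing notes, without their settings; the genome build and strand setting are not given in the sources used here. Poly-A RNA was selected and primed with random hexamers, per the labels' protocols. A deposited FPKM table, whose values had lost their decimal points, and a RefSeq gene table that shared 0 identifiers with the counts were not used. All columns were matched to libraries (0 left over).

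Counts were tested with edgeR 4.0.16 in R 4.3.3: filterByExpr left 23077 of 39755 genes, TMM factors (0.910 to 1.10) scaled the libraries, and quasi-likelihood F tests with robust estimation were fitted to all 9 libraries with group as the only term. P-values were adjusted by Benjamini-Hochberg over all tested genes. Each SE was taken from the fold change and its F statistic and is approximate. The floor of 3 counts covers counting error only.

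Replicates of a group differed by more than counting noise (chi-square per degree of freedom 49.3 to 108). Deviations from the group means of same-numbered libraries correlated at 0.138, 0.147 and 0.116 between SA and mock. The replicate number was therefore taken to pair these groups. The correlations were 0.0663 to 0.141 for Zip1 and mock and 0.0719 to 0.147 for Zip1 and SA. In every comparison each library correlated best with its own number, so the same pairing may hold for the Zip1 libraries. The reported fit leaves the replicate number out of every comparison, and the block is given as an alternative.

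Members, gene lists and tests were chosen with earlier results of these data known. Members named were those called in any comparison, their neighbours within 200 kb, the 6 with the highest level, and up to 5 more per comparison with the lowest unadjusted p; a few others were named for sharing an entry after their values were seen. Alternatives were RLE factors, DESeq2 1.42.0, no filter, fits on 6 libraries, a replicate block, an adjusted p under 0.01, and each library left out.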

Additional observations from a re-analysis of the deposited data

How the results depend on the processing

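With RLE factors the member counts were the same as reported. An adjusted p under 0.01 left 1 higher and 0 lower members with SA, 0 higher with Zip1 and 1 higher for Zip1 against SA, and 662, 4 and 296 genes in all for these comparisons. DESeq2 gave 3 lower members with SA, 5 higher with Zip1, and 10 higher and 4 lower for Zip1 against SA, with 2449, 930 and 2037 genes in all. With the replicate block 2220 genes were called for SA in place of 1436, with 4 higher members and 1 lower, the lower one a different gene. The block gave 4 higher members and 574 genes with Zip1. For Zip1 against SA it gave 6 higher members, 1 lower and 1553 genes. In every comparison each library correlated best with its own number. Zm00001eb141500 was called in all 3 comparisons with the block (adjusted p 0.0365 for SA, 0.0282 for Zip1 and 0.00133 for Zip1 against SA). Without a filter 1 member was lower for Zip1 against SA. The causes were not tested. Leaving out 1 library in turn gave 1 to 5 higher and 0 to 2 lower members with SA, 0 to 3 higher with Zip1, 1 to 5 higher and 0 to 1 lower for Zip1 against SA, and 839 to 1414, 0 to 243 and 456 to 960 genes in all. Member medians then ran from −0.56 to −0.12, 0.12 to 0.54 and 0.17 to 0.52. Named members reversed direction past the threshold in no alternative run. With raw library totals the levels of the 6 highest members over all libraries ran from 22.2 to 633, against 22.1 to 631; the mock mean of Zm00001eb319630 was 22.3 in place of 22.8, a move above its SD of 0.465. Of the members averaging under 100 normalised counts, Zm00001eb363180 alone was called in the reported fit.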
